A study of Mus musculus with 23 samples.

Results

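Meiotic recombination and synaptonemal complex genes were followed through the testes of 3 inbred mouse strains on 2 diets. The set holds 42 genes, taken by gene symbol from a count table of 28861 genes: 39 matched by symbol, and Terb1, Terb2 and Majin by gene ID, because the table lists them as Ccdc79, 4933406J08Rik and 1700123I01Rik. All 42 passed the filter on low counts, which left 22873 genes for the tests. The libraries came from wild-type males with no further treatment, of C57BL/6J, CAST/EiJ and NZO/HlLtJ. C57BL/6J is the strain of the reference genome, CAST/EiJ was derived from wild mice of another subspecies, and NZO/HlLtJ is a strain prone to obesity and diabetes. From 6 weeks of age the mice ate a control diet with 10% fat plus fiber or a high fat, high sugar diet with 44% fat plus fiber, and testes were collected at 16 weeks. Each diet had 4 libraries per strain, except CAST/EiJ on 10% fat, which had 3. Per the series title, the study asks how genotype and diet act together in models of type 2 diabetes.

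In meiosis, chromosomes are first cut by a topoisomerase-like complex around SPO11, and the broken ends then invade the homologous chromosome with the help of DMC1, BRCA2 and their partners. The synaptonemal complex, a protein ladder built on cohesin-bound chromosome axes, zips the homologues together while some of the exchanges mature into crossovers. In the adult testis these genes are active mostly in spermatocytes, so that their level in RNA from whole tissue depends on both the share of spermatocytes and the RNA per cell, and in bulk libraries the contributions of these factors cannot be told apart.

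The estimated counts of a library summed to between 21.9 and 78.7 M (M, 1000000), the median library holding 35.1 M. The labels do not say whether libraries of a group came from separate animals, and p-values then measure the spread between these samples only. The 33 pairs of libraries within a group differed by more than counting noise, with chi-square values of 3.47 to 18.9 per degree of freedom, so none was treated as a duplicate. In a principal component analysis of all tested genes, C57BL/6J 10% fat replicate 4, which had the lowest total, lay farthest out on the third component, and NZO/HlLtJ 44% fat replicate 3 and NZO/HlLtJ 10% fat replicate 4 lay farthest out on the fourth. A list of epididymis and rete testis genes summed to 248 counts per 1000000 counts (CPM) in CAST/EiJ 44% fat replicate 2 and to between 126 and 141 CPM in the other 22 libraries. Only 6 of the 10 listed genes were in the count table, without Lcn8, Adam7, Gpx5 and Lcn5, so the sum covers only part of the list. Markers of spermatocytes and spermatids were abundant in every library: 16 spermatocyte genes outside the set summed to 8090 to 10600 CPM.

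Among the 42 genes, divided by exon length, the highest level belonged to Syce1 at 160 CPM per kb of exon, averaged over all libraries. Sycp3 followed at 116 CPM per kb and Stag3 at 105 CPM per kb; their proteins are a central element of the synaptonemal complex, a core of its lateral elements and a meiotic cohesin subunit. The order of these 3 differed between strains: in CAST/EiJ Stag3, at 136 ± 4.51 CPM per kb (SD, n = 7), lay near Syce1 at 141 ± 4.44, whereas in C57BL/6J Syce1 was at 178 ± 7.64 and Stag3 at 95.4 ± 4.01 (SD, n = 8). The lowest was Mei4, needed for DNA break formation, at 0.124 CPM per kb. Proteins that work as pairs were not always encoded at like levels per kb. Psmc3ip stood at 37.4 and its partner Mnd1 at 3.38, and Meiob at 9.69 and Spata22 at 4.65. Msh4 at 3.27 and Msh5 at 3.33 CPM per kb lay close together. The related cohesin subunit genes Rec8 and Rad21l, which are not such a pair, stood at 18.8 and 1.39 CPM per kb. Exon length here covers all annotated exon bases of a gene, so these levels depend on the annotation. Without division by length, Psmc3ip stood at 68.0 and Mnd1 at 2.96 CPM, Meiob at 17.4 and Spata22 at 14.9 CPM. Msh4 stood at 22.5 and Msh5 at 18.4 CPM. The value of Spata22 is uncertain, because Olfr20 overlaps 68% of its exon bases on the same strand, a further annotated Spata22 gene 32%, and 11.2% of its 50-base words occur elsewhere. Within a strain, the median coefficient of variation between libraries was 8.09% for C57BL/6J, 6.77% for CAST/EiJ and 7.67% for NZO/HlLtJ.

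**Figure D1:**
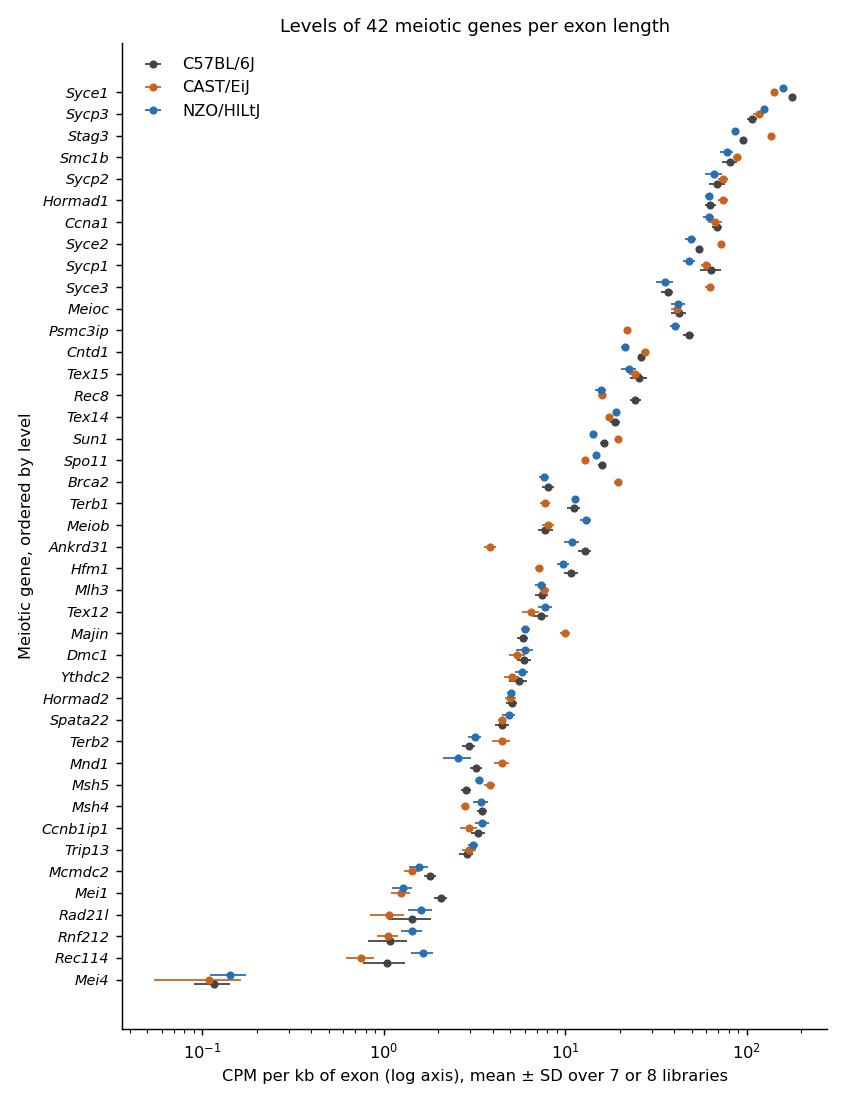
Mean level of each of the 42 genes in CPM per kb of exon (log axis), with SD over 8 libraries of C57BL/6J and of NZO/HlLtJ and 7 of CAST/EiJ. Syce1, Sycp3 and Stag3 lead and Mei4 is lowest, and the CAST/EiJ points of Ankrd31, Psmc3ip, Brca2 and Stag3 stand clear of the other strains.

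Strain moved many of the 42 genes, in both directions and mostly by small amounts. Strains were compared over all 22873 genes, averaged over diets, by quasi-likelihood tests in edgeR whose p-values were adjusted after Benjamini and Hochberg, and a gene is called at an adjusted p under 0.05. Between NZO/HlLtJ and C57BL/6J 21 of the 42 were called, or 50%, against 59.1% of all genes tested; 5 were higher and 16 lower in NZO/HlLtJ, and of all genes 30.4% were called higher and 28.7% lower. Between CAST/EiJ and C57BL/6J 26 were called, or 61.9%, against 66.8% of all genes, with 12 higher and 14 lower in CAST/EiJ (32.7% and 34.1% of all genes). Between NZO/HlLtJ and CAST/EiJ 30 were called, or 71.4%, against 72.1% of all genes, with 15 in each direction (39.6% higher and 32.5% lower among all genes). The share called was thus below or near that of all genes in each comparison. The 3 comparisons share libraries pairwise, so they are set side by side only.

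The sizes were smaller than for the genes at large. The median absolute log2 fold change of the 42 genes was 0.14 for NZO/HlLtJ against C57BL/6J, 0.25 for CAST/EiJ against C57BL/6J and 0.27 for NZO/HlLtJ against CAST/EiJ, beside 0.27, 0.36 and 0.42 over all genes. All genes were not matched to the 42 by level, and they include many scarce ones. For the list of other meiosis genes described below, these medians were 0.15, 0.31 and 0.34, close to those of the 42. The signed medians of the 42 were -0.03, -0.04 and 0.06, beside 0.01, 0.00 and 0.06 over all genes. In the same order, 0, 3 and 3 of the 42 were called with a change of more than 2-fold, against 10.8%, 22.2% and 22.7% of all genes, and 4, 9 and 9 with more than 1.5-fold, against 21%, 33.7% and 36.4%. A strain is said to stand apart where it was called in the same direction against both others, which were not called against each other. CAST/EiJ stood apart in 11 genes, with Syce3, Hormad1, Smc1b, Terb2, Majin and Brca2 higher and Tex12, Msh4, Rad21l, Tex14 and Terb1 lower. NZO/HlLtJ stood apart in 5, with Meiob and Rnf212 higher and Sycp1, Cntd1 and Ccna1 lower, and C57BL/6J in 4, with Mei1, Rec8 and Mcmdc2 higher and Sycp3 lower. A further 11, Ankrd31, Psmc3ip and Stag3 among them, were called in all 3 comparisons, 4 in 1 comparison and 7 in none. The shares of all genes with these patterns were not counted.

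**Figure D2:**
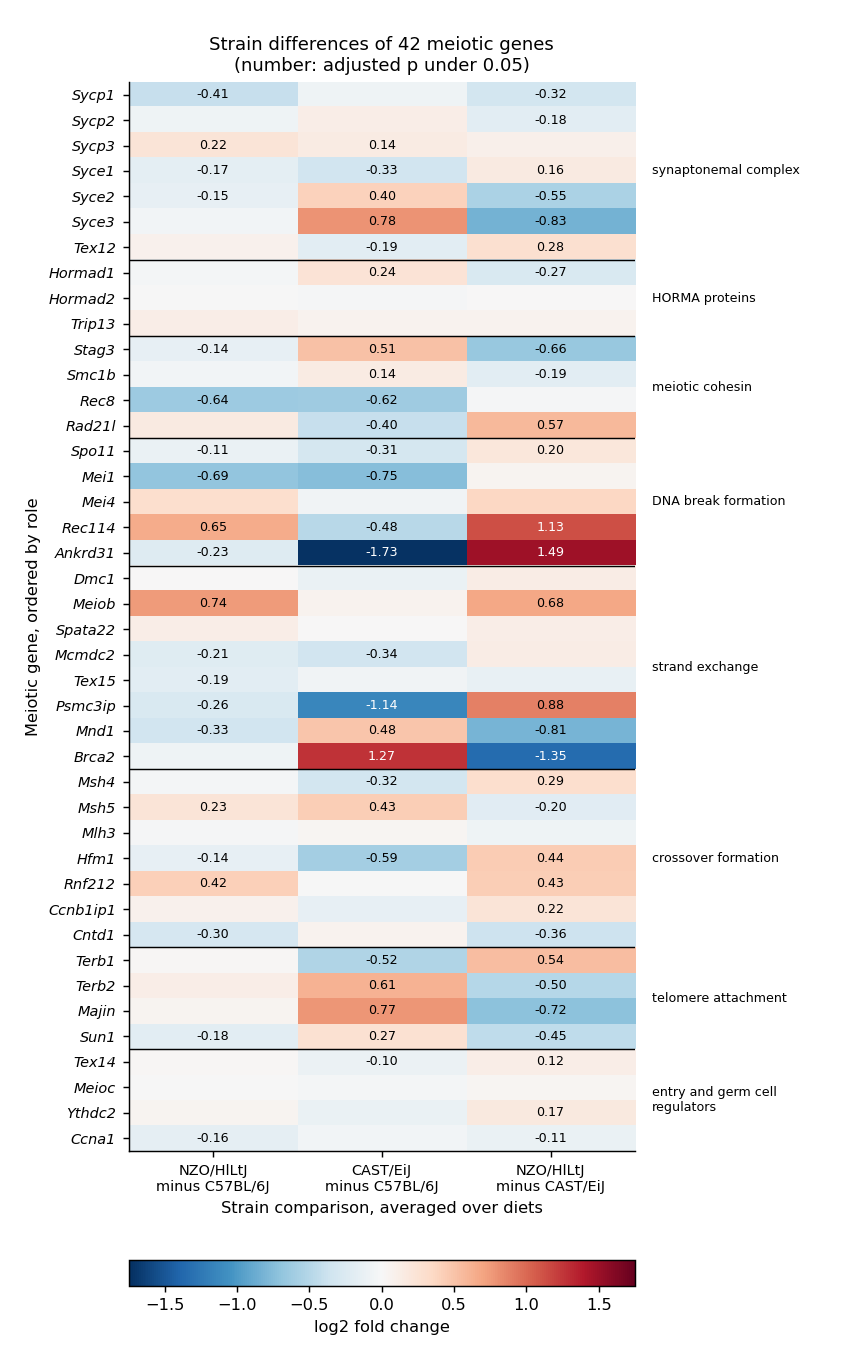
Log2 fold changes of the 42 genes in the 3 strain comparisons, ordered by role, with the value printed where the adjusted p was under 0.05. The deepest colours are those of Ankrd31, at -1.73 for CAST/EiJ against C57BL/6J and 1.49 for NZO/HlLtJ against CAST/EiJ, and of Brca2, at 1.27 and -1.35, while the HORMA protein genes are nearly blank.

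The direction of the NZO/HlLtJ comparisons depended on the scaling. With library totals alone in place of TMM scaling, which also moved the median of all genes between NZO/HlLtJ and CAST/EiJ from 0.06 to 0.17, NZO/HlLtJ had 9 of the 42 genes higher and 10 lower than C57BL/6J, and 21 higher and 11 lower than CAST/EiJ. In that scaling Syce2, Spo11, Tex15, Ccna1, Hfm1 and Mcmdc2 were no longer called lower in NZO/HlLtJ than in C57BL/6J, and Tex14, Trip13, Terb2 and Spata22 were called higher. Against CAST/EiJ, NZO/HlLtJ lost its lower calls of Msh5, Smc1b, Ccna1 and Sycp2 and gained higher calls of Sycp3, Trip13, Dmc1, Mcmdc2, Meioc and Spata22, and between CAST/EiJ and C57BL/6J the call of Smc1b was lost while Ythdc2 and Ccnb1ip1 were called lower. The larger differences described below were called under both scalings.

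The largest strain differences were in Ankrd31, Psmc3ip and Brca2, and in each CAST/EiJ differed most from the other strains. Ankrd31 (chr13:96748272-96910039, plus strand, GRCm38), whose protein binds REC114 and directs breaks to the region shared by the sex chromosomes, ranged from 70.7 to 88.9 CPM with a median of 80.9 in C57BL/6J, from 21.5 to 26.0 with a median of 24.6 in CAST/EiJ, and from 55.9 to 75.8 with a median of 69.3 in NZO/HlLtJ. Every CAST/EiJ library lay below every library of the other strains, and C57BL/6J and NZO/HlLtJ overlapped. Ankrd31 was 3.31-fold lower in CAST/EiJ than in C57BL/6J (log2 fold change -1.73, SE 0.06, adjusted p 3.89e-20 by edgeR) and 2.81-fold higher in NZO/HlLtJ than in CAST/EiJ (1.49, SE 0.06, adjusted p 1.12e-18). Between NZO/HlLtJ and C57BL/6J the log2 difference was -0.23 (SE 0.05, adjusted p 5.89e-04).

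Psmc3ip (chr11:101091823-101095436, minus strand), which encodes HOP2, the partner of MND1 in DMC1-driven strand invasion, ranged from 74 to 93.0 CPM with a median of 88.8 in C57BL/6J, from 38.2 to 41.2 with a median of 40.5 in CAST/EiJ, and from 68.2 to 81.6 with a median of 72.1 in NZO/HlLtJ. Again all 7 CAST/EiJ libraries lay below all others. It was 2.20-fold lower in CAST/EiJ than in C57BL/6J (log2 -1.14, SE 0.04, adjusted p 6.96e-20), and NZO/HlLtJ exceeded CAST/EiJ by 0.88 (SE 0.04) and fell short of C57BL/6J at -0.26 (SE 0.04). Of its exon bases 21.2% are overlapped on the opposite strand by Mlx, which was at 5.64 ± 0.315, 7.15 ± 0.674 and 7.03 ± 0.795 CPM in C57BL/6J, CAST/EiJ and NZO/HlLtJ (SD, n = 8, 7 and 8). Psmc3ip and Mlx together came to 93.1 ± 5.68, 46.9 ± 1.71 and 80.3 ± 5.08 CPM, so the sum kept the order of Psmc3ip.

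Brca2 (chr5:150522630-150570329, plus strand), a mediator that loads DMC1 onto single-stranded DNA, went the other way. It ranged from 101 to 121 CPM with a median of 110 in C57BL/6J, from 251 to 288 with a median of 265 in CAST/EiJ, and from 92.0 to 112 with a median of 108 in NZO/HlLtJ. The CAST/EiJ libraries were all far above the others, which overlapped. Brca2 was 2.42-fold higher in CAST/EiJ than in C57BL/6J (log2 1.27, SE 0.04, adjusted p 2.70e-20) and 2.54-fold lower in NZO/HlLtJ than there (-1.35, SE 0.04, adjusted p 7.41e-21). Reads from alleles that differ from the C57BL/6J reference can be lost in alignment, which would lower counts in CAST/EiJ and NZO/HlLtJ; the sources used here do not state how strain variants were handled, and the part of such losses in the lower counts of Ankrd31, Psmc3ip and other genes was not tested. No 50-base word of the Ankrd31 or Psmc3ip transcripts occurs in the transcripts of another gene, and 1.96% of those of Brca2 do.

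**Figure D3:**
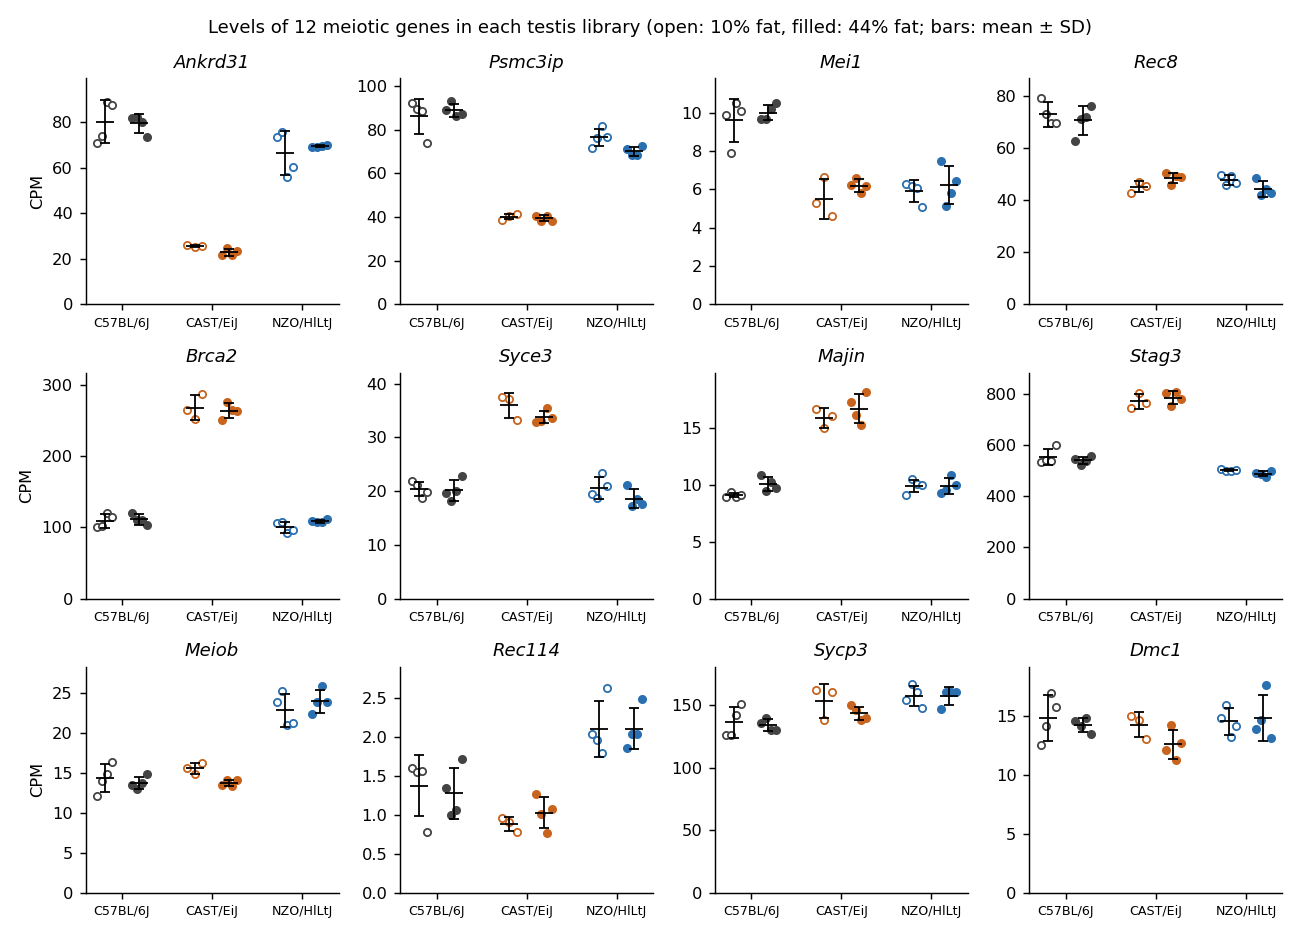
CPM of 12 of the genes in each of the 23 libraries by strain and diet (open, 10% fat; filled, 44% fat), with mean ± SD per group of 3 or 4 libraries and axes from 0. The CAST/EiJ points of Ankrd31 (21.5 to 26.0 CPM), Psmc3ip and Brca2 do not meet those of the other strains, Dmc1 lies at like levels in all, and open and filled points lie together.

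To show what the promoters of these genes hold, the 250 bases before the transcription start were taken from RefSeq on GRCm38.p6, for which 35 of the 42 genes had an entry. The windows were searched on both strands for letters bound by factors known from germ cell genes: CNCCTCAG for STRA8, which switches on meiotic entry; GCGGGAA for E2F proteins and CACGTG, the palindromic E-box bound by MGA, both used by a repressor complex that keeps germ cell genes silent in somatic cells; and TAACTG for MYB proteins, among them the pachytene activator MYBL1. These are reference sequences, and the promoters of CAST/EiJ and NZO/HlLtJ were not analysed here. The 3 genes with the largest strain differences are shown first, then Sycp3 and Hormad1, whose windows hold both the E2F and the E-box letters; capitals mark matches to any of the 4 motifs.
Ankrd31, chr13:96748043-96748292, plus strand: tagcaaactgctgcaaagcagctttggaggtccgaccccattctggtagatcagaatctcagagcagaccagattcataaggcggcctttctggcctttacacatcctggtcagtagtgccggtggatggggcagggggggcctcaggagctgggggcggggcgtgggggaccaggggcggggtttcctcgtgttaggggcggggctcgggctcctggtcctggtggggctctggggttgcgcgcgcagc
Psmc3ip, chr11:101095436-101095685, minus strand: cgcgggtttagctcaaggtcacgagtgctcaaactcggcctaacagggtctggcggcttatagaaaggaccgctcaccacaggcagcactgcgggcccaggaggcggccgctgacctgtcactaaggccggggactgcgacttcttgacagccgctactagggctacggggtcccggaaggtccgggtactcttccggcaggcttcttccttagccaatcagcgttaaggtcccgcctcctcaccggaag
Brca2, chr5:150522371-150522620, plus strand: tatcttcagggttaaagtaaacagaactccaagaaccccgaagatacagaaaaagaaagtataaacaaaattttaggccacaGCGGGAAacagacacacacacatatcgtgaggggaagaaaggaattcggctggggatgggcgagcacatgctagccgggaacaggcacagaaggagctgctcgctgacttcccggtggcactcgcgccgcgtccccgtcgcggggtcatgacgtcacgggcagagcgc
Sycp3, chr10:88459337-88459586, plus strand: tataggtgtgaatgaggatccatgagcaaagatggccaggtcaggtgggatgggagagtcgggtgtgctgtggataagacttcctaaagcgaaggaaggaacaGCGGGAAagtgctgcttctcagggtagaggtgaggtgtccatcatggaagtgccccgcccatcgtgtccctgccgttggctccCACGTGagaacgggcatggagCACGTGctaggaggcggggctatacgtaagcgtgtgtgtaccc
Hormad1, chr3:95559427-95559676, plus strand: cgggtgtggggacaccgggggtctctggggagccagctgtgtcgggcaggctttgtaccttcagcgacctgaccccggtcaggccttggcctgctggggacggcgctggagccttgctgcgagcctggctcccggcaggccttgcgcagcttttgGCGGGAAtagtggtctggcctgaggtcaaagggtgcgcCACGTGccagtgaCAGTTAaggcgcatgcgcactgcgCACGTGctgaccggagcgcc

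Neither the Ankrd31 nor the Psmc3ip window holds any of the 4 motifs, and the Brca2 window holds the E2F letters once. The E2F letters occurred in 10 of the 35 members, or 28.6%, against 4.38% of the 27025 genes with a RefSeq window and 6.78% of the 14421 tested genes outside the set. They were in the windows of Brca2, Hormad1, Meioc, Msh5, Rnf212, Smc1b, Syce2, Sycp3, Tex12 and Tex14. The start used for Rnf212 did not match a transcript of that gene in GENCODE M21, so its window is uncertain. The E-box occurred in 8, or 22.9%, against 6.86% of all genes and 8.64% of tested genes outside the set, namely Cntd1, Hormad1, Rec114, Stag3, Syce2, Sycp1, Sycp3 and Tex12. STRA8 letters were in 4 members (11.4%, against 7.39% of all genes), Hfm1, Hormad2, Msh5 and Syce2, and MYB letters in 4 (11.4%, against 9.74%), Ccnb1ip1, Hormad1, Meioc and Stag3. The median density of CG dinucleotides was 5.2 per 100 bases both in members and in tested genes outside the set. These matches describe letters in the windows and were not tied to the strain differences.

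Of the genes for DNA break formation, 4 of 5 were called lower in CAST/EiJ than in C57BL/6J and none higher, where 34.1% of all genes were called lower. Besides Ankrd31 these were Mei1, Rec114 and Spo11. Mei1, required for break formation, ranged from 7.93 to 10.5 CPM with a median of 9.97 in C57BL/6J, from 4.61 to 6.64 with a median of 6.18 in CAST/EiJ, and from 5.08 to 7.49 with a median of 6.13 in NZO/HlLtJ. Its C57BL/6J libraries lay above all others, while CAST/EiJ and NZO/HlLtJ overlapped. The log2 difference from C57BL/6J was -0.75 (SE 0.09) in CAST/EiJ and -0.69 (SE 0.08) in NZO/HlLtJ, with adjusted p of 1.03e-08 and 2.67e-08 by edgeR.

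Rec114, the partner of MEI4 and ANKRD31, had few counts, at 0.781 to 1.71 CPM with a median of 1.45 in C57BL/6J, 0.769 to 1.26 with a median of 0.959 in CAST/EiJ, and 1.79 to 2.62 with a median of 2.03 in NZO/HlLtJ. All NZO/HlLtJ libraries were above all others, and the other strains overlapped. Rec114 was higher in NZO/HlLtJ than in C57BL/6J by 0.65 (SE 0.14, adjusted p 3.20e-04) and than in CAST/EiJ by 1.13 (SE 0.16, adjusted p 2.36e-07), and CAST/EiJ was at -0.48 (SE 0.16) against C57BL/6J. On the opposite strand Nptn, at 42.7 ± 2.04, 54.2 ± 2.34 and 42.8 ± 1.75 CPM in C57BL/6J, CAST/EiJ and NZO/HlLtJ, overlaps 26.9% of the Rec114 exon bases. The sources used here do not state whether counting used strand, so reads of the overlap cannot be assigned with certainty. Spo11, the catalytic subunit, stood at 62.4 ± 2.48, 50.3 ± 1.88 and 57.9 ± 2.19 CPM in C57BL/6J, CAST/EiJ and NZO/HlLtJ and differed in all 3 comparisons, by -0.31 for CAST/EiJ against C57BL/6J. Mei4, at 0.48 ± 0.108, 0.449 ± 0.224 and 0.591 ± 0.135 CPM in that order, was called in none. The 5 genes together summed to a median of 156 CPM in C57BL/6J (144 to 165), 83.1 CPM in CAST/EiJ (76.4 to 84.5) and 134 CPM in NZO/HlLtJ (121 to 144), a sum carried mainly by Ankrd31 and Spo11.

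Among the 8 genes of strand exchange, Psmc3ip and Mnd1 differed in opposite directions in both comparisons with CAST/EiJ, whereas both were lower in NZO/HlLtJ than in C57BL/6J. Mnd1 ranged from 2.54 to 3.13 CPM with a median of 2.85 in C57BL/6J, from 3.43 to 4.39 with a median of 3.81 in CAST/EiJ, and from 1.79 to 2.87 with a median of 2.15 in NZO/HlLtJ. The CAST/EiJ libraries lay above all others. Mnd1 differed by 0.48 (SE 0.10, adjusted p 1.25e-04) for CAST/EiJ against C57BL/6J, by -0.81 (SE 0.10, adjusted p 3.96e-08) for NZO/HlLtJ against CAST/EiJ and by -0.33 (SE 0.10, adjusted p 5.99e-03) for NZO/HlLtJ against C57BL/6J. The last of these was called on 10% fat but not on 44% fat alone (log2 -0.27, adjusted p 0.121). Of the 50-base words of Mnd1, 40.8% also occur elsewhere, mostly in the pseudogene Mnd1-ps, so its counts are uncertain.

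Meiob, whose protein binds single-stranded DNA together with SPATA22, stood out in NZO/HlLtJ. It ranged from 12.1 to 16.4 CPM with a median of 13.8 in C57BL/6J, from 13.3 to 16.2 with a median of 14.1 in CAST/EiJ, and from 21 to 25.8 with a median of 23.8 in NZO/HlLtJ. No NZO/HlLtJ library overlapped the other strains, which overlapped each other. Meiob was 1.67-fold higher in NZO/HlLtJ than in C57BL/6J (log2 0.74, SE 0.05, adjusted p 2.49e-12) and 1.60-fold higher than in CAST/EiJ (0.68, SE 0.06, adjusted p 1.44e-11). Spata22 was at 14.5 ± 1.27, 14.5 ± 0.719 and 15.6 ± 1.26 CPM in C57BL/6J, CAST/EiJ and NZO/HlLtJ and was called in no comparison, with the lowest adjusted p at 0.0712. Dmc1, the meiosis-specific recombinase, was likewise called in none, at 14.5 ± 1.35, 13.3 ± 1.39 and 14.6 ± 1.5 CPM. Mcmdc2, which supports strand exchange and is related to replicative helicases, was lower than in C57BL/6J in CAST/EiJ by -0.34 and in NZO/HlLtJ by -0.21, and Tex15, needed for meiotic recombination in males, was lower in NZO/HlLtJ than in C57BL/6J alone, by -0.19; both NZO/HlLtJ calls were lost with library totals alone.

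In crossover formation the 2 subunits of the MutSγ clamp, which stabilises joint molecules, also diverged. Msh5 ranged from 13.9 to 16.9 CPM with a median of 15.9 in C57BL/6J, from 19.7 to 24.3 with a median of 20.9 in CAST/EiJ, and from 17.2 to 19.5 with a median of 18.5 in NZO/HlLtJ. The strains did not overlap, and the order was C57BL/6J, NZO/HlLtJ, CAST/EiJ. Msh5 was higher than in C57BL/6J by 0.43 (SE 0.05, adjusted p 7.12e-09) in CAST/EiJ and by 0.23 (SE 0.05, adjusted p 1.34e-04) in NZO/HlLtJ. On 44% fat alone the difference of Msh5 between NZO/HlLtJ and C57BL/6J was 0.16 (adjusted p 0.0533), and its call for NZO/HlLtJ against CAST/EiJ, at -0.20, was lost with library totals alone. Msh4 was at 24.1 ± 1.49, 19.3 ± 1.06 and 23.7 ± 2.16 CPM in C57BL/6J, CAST/EiJ and NZO/HlLtJ, which put CAST/EiJ at -0.32 (SE 0.06, adjusted p 1.16e-05) against C57BL/6J. Msh5 and Msh4 thus differed in opposite directions between CAST/EiJ and C57BL/6J.

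Hfm1, a helicase for crossover intermediates, was at 72.1 ± 6.63, 47.8 ± 2.32 and 65.3 ± 5.23 CPM in the same order of strains, with CAST/EiJ at -0.59 (SE 0.05, adjusted p 1.46e-10) against C57BL/6J. Cntd1, a cyclin-like crossover designation factor, was at 116 ± 3.48, 121 ± 5.98 and 94.6 ± 5.27 CPM and was lower in NZO/HlLtJ by -0.30 (SE 0.04, adjusted p 4.04e-08) against C57BL/6J. Becn1 overlaps 70.2% of the Cntd1 exon bases on the opposite strand and stood at 133 ± 4.40, 139 ± 4.90 and 133 ± 3.20 CPM, so that the level of Cntd1 is uncertain, although Becn1 itself differed by at most 0.07 on the log2 scale. Rnf212, a SUMO ligase whose dosage affects crossover number, was at 1.78 ± 0.431, 1.75 ± 0.232 and 2.38 ± 0.325 CPM and was higher in NZO/HlLtJ than in C57BL/6J by 0.42 (SE 0.13, adjusted p 6.66e-03). This Rnf212 call did not hold on 10% fat alone (0.40, adjusted p 0.083), and the libraries of the strains overlapped. Ccnb1ip1, its ubiquitin ligase counterpart, was called only between NZO/HlLtJ and CAST/EiJ, at 0.22, and Mlh3, of the resolving nuclease, in no comparison.

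Of the 7 synaptonemal complex genes, 4, 5 and 6 were called for NZO/HlLtJ against C57BL/6J, CAST/EiJ against C57BL/6J and NZO/HlLtJ against CAST/EiJ, beside 59.1%, 66.8% and 72.1% of all genes. In the comparisons with CAST/EiJ the largest value was that of Syce3, and between NZO/HlLtJ and C57BL/6J that of Sycp1. Syce3, a central element protein, ranged from 18.2 to 22.8 CPM with a median of 19.9 in C57BL/6J, from 32.9 to 37.5 with a median of 33.6 in CAST/EiJ, and from 17.2 to 23.4 with a median of 19.1 in NZO/HlLtJ. All CAST/EiJ libraries were above the others, which overlapped. Syce3 was 1.72-fold higher in CAST/EiJ than in C57BL/6J (log2 0.78, SE 0.06, adjusted p 5.44e-13), and NZO/HlLtJ was at -0.83 (SE 0.06, adjusted p 1.15e-13) against CAST/EiJ. Syce2 moved the same way at a smaller size, at 107 ± 3.09, 142 ± 5.40 and 97.0 ± 6.47 CPM in C57BL/6J, CAST/EiJ and NZO/HlLtJ, whereas Tex12, the partner of SYCE2, at 7.49 ± 0.743, 6.57 ± 0.706 and 7.92 ± 0.716 CPM, was lower in CAST/EiJ than in C57BL/6J by -0.19 (adjusted p 0.0362). Syce1 was lower in both other strains than in C57BL/6J, by -0.33 in CAST/EiJ and -0.17 in NZO/HlLtJ.

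Sycp1, the transverse filament that spans the complex, ranged from 196 to 282 CPM with a median of 225 in C57BL/6J, from 200 to 234 with a median of 213 in CAST/EiJ, and from 148 to 193 with a median of 171 in NZO/HlLtJ. Every NZO/HlLtJ library lay below the others, at -0.41 (SE 0.06, adjusted p 1.02e-06) against C57BL/6J. Of its 50-base words 5.47% also occur in transcripts of other genes, foremost its pseudogene Sycp1-ps1, which was counted at 6.27 ± 1.05, 42.6 ± 2.44 and 4.50 ± 0.748 CPM in C57BL/6J, CAST/EiJ and NZO/HlLtJ. With the pseudogene added the sums were 233 ± 29.7, 256 ± 15.4 and 175 ± 13.2 CPM, so the low value in NZO/HlLtJ remained while the order of the other strains changed. Sycp3, the lateral element core, was at 135 ± 9.01, 148 ± 10.6 and 158 ± 7.05 CPM and was higher than in C57BL/6J by 0.22 (SE 0.04, adjusted p 3.86e-05) in NZO/HlLtJ and by 0.14 in CAST/EiJ. On the opposite strand Chpt1 overlaps 52.2% of the Sycp3 exon bases, and it was lower in NZO/HlLtJ than in C57BL/6J by -0.19 (SE 0.05). Sycp3 and Chpt1 together came to 233 ± 9.40, 245 ± 15.2 and 243 ± 12 CPM in C57BL/6J, CAST/EiJ and NZO/HlLtJ, and in the sum NZO/HlLtJ no longer exceeded CAST/EiJ, so the level of Sycp3 is uncertain. Sycp2, its partner, was called only for NZO/HlLtJ against CAST/EiJ, at -0.18, a call lost with library totals alone (-0.07).

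The HORMA proteins mark unsynapsed axes and are removed by the ATPase TRIP13. Hormad1, at 109 ± 7.37, 129 ± 8.43 and 107 ± 5.64 CPM in C57BL/6J, CAST/EiJ and NZO/HlLtJ, was higher in CAST/EiJ than in C57BL/6J by 0.24 (SE 0.05, adjusted p 3.11e-05). Of its 50-base words 22.9% also occur elsewhere, foremost in Gm15529, whose counts came to 0.0092% of those of Hormad1. Hormad2, at 13.9 ± 1.03, 13.6 ± 0.936 and 13.8 ± 0.748 CPM, and Trip13, at 9.95 ± 0.900, 10.3 ± 0.871 and 10.8 ± 0.723 CPM, were called in no comparison.

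Meiotic cohesin showed opposite strain differences among its 4 subunits. Stag3, the subunit common to the meiotic complexes, ranged from 524 to 599 CPM with a median of 540 in C57BL/6J, from 745 to 809 with a median of 779 in CAST/EiJ, and from 477 to 507 with a median of 497 in NZO/HlLtJ. None of the strains overlapped. Stag3 was 1.42-fold higher in CAST/EiJ than in C57BL/6J (log2 0.51, SE 0.03, adjusted p 1.37e-15) and lower again in NZO/HlLtJ, at -0.66 against CAST/EiJ (SE 0.03, adjusted p 3.68e-18). Rec8, the kleisin that holds sister chromatids until the second division, went the other way: it ranged from 62.8 to 79.4 CPM with a median of 71.7 in C57BL/6J, from 42.8 to 50.4 with a median of 47.0 in CAST/EiJ, and from 41.9 to 49.6 with a median of 46.2 in NZO/HlLtJ. C57BL/6J lay above both other strains without overlap, and those overlapped each other. Rec8 was at -0.62 (SE 0.04, adjusted p 4.37e-13) in CAST/EiJ and at -0.64 (SE 0.04, adjusted p 1.70e-13) in NZO/HlLtJ against C57BL/6J.

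The other kleisin gene, Rad21l, had few counts, at 2.39 ± 0.624, 1.78 ± 0.373 and 2.67 ± 0.409 CPM in C57BL/6J, CAST/EiJ and NZO/HlLtJ. Its difference of 0.57 between NZO/HlLtJ and CAST/EiJ (SE 0.15, adjusted p 1.13e-03) did not hold on 10% fat alone, where it was 0.29 (adjusted p 0.247). Smc1b, the meiotic SMC subunit, was at 326 ± 31.4, 358 ± 16.7 and 314 ± 24.3 CPM, and its calls, higher in CAST/EiJ than in either other strain, were lost with library totals alone.

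Telomere attachment genes, whose proteins tether chromosome ends to the nuclear envelope for pairing movements, were all called in both comparisons with CAST/EiJ, where 66.8% and 72.1% of all genes were called. Between NZO/HlLtJ and C57BL/6J, where 59.1% of all genes were called, 1 of the 4 was, and counts over so few genes were not tested against each other. Majin, the membrane anchor, ranged from 8.95 to 10.9 CPM with a median of 9.42 in C57BL/6J, from 15 to 18.2 with a median of 16.2 in CAST/EiJ, and from 9.17 to 10.9 with a median of 9.97 in NZO/HlLtJ. The CAST/EiJ libraries were all higher, and the others overlapped. Majin was 1.71-fold higher in CAST/EiJ than in C57BL/6J (log2 0.77, SE 0.05, adjusted p 2.75e-13). Terb2, which links MAJIN to TERB1, was also higher in CAST/EiJ, at 6.23 ± 0.517, 9.45 ± 1.05 and 6.74 ± 0.576 CPM in C57BL/6J, CAST/EiJ and NZO/HlLtJ (0.61 against C57BL/6J, SE 0.07, adjusted p 2.91e-08). Terb1, the third subunit of that complex, was lower there, at 42.1 ± 3.40, 29.1 ± 1.82 and 42.6 ± 2.01 CPM (-0.52, SE 0.05, adjusted p 1.14e-10). Sun1, of the nuclear envelope bridge, was at 124 ± 6.02, 149 ± 5.39 and 109 ± 2.28 CPM and was called in all 3 comparisons.

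The regulators of meiotic entry and germ cell organisation showed small strain differences. Meioc, which with YTHDC2 ends the mitotic program, was at 195 ± 18.2, 190 ± 12.3 and 194 ± 17.9 CPM in C57BL/6J, CAST/EiJ and NZO/HlLtJ and was called nowhere. Ythdc2 was called only between NZO/HlLtJ and CAST/EiJ, at 0.17. Tex14, of the bridges between germ cells, was lower in CAST/EiJ than in C57BL/6J by -0.10 (adjusted p 0.0212), and Ccna1, a cyclin needed for the meiotic divisions of spermatocytes, was lower in NZO/HlLtJ than in C57BL/6J by -0.16 (adjusted p 2.47e-03), a call lost with library totals alone.

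The 7 genes called in no strain comparison were Dmc1, Hormad2, Mei4, Spata22, Mlh3, Trip13 and Meioc. Their log2 differences lay between -0.12 and 0.36, the largest that of Mei4, and without Mei4 their 95% intervals lay between -0.26 and 0.27. With library totals alone, Trip13 and Spata22 were called higher in NZO/HlLtJ than in both other strains, and Dmc1 and Meioc higher than in CAST/EiJ.

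A list of 49 other genes of meiosis, of which 48 were tested, also held calls in both directions. For NZO/HlLtJ against C57BL/6J 29 were called (60.4%, beside 59.1% of all genes), 13 higher and 16 lower, with a median of -0.04. For CAST/EiJ against C57BL/6J 39 were called (81.2%, beside 66.8%), 19 higher and 20 lower, with a median of -0.03. For NZO/HlLtJ against CAST/EiJ 40 were called (83.3%, beside 72.1%), 20 in each direction, with a median of 0.08. Iho1, another partner of REC114 in break formation, was at 17.3 ± 0.777, 8.80 ± 1.05 and 18.4 ± 1.14 CPM in C57BL/6J, CAST/EiJ and NZO/HlLtJ, and thus low in the strain with low Ankrd31 (log2 -0.97, SE 0.06, adjusted p 6.02e-14 against C57BL/6J). The helicase gene Helq (-1.19, SE 0.06) and the resolvase gene Mus81 (-1.10, SE 0.06) were also lower in CAST/EiJ than in C57BL/6J, and higher there were Spo16, a crossover factor, by 0.79 (SE 0.04), Atm, a kinase of the break response, by 0.76 (SE 0.07) and Kash5, the partner of SUN1, by 0.70 (SE 0.04). In NZO/HlLtJ, Meikin, which protects cohesin at centromeres, was 1.91-fold lower than in C57BL/6J (log2 -0.93, SE 0.05, adjusted p 2.72e-15), Speedya, which activates CDK2 at telomeres, and Aurkc, a kinase of the meiotic spindle, were lower by -0.41 and -0.40, and Smc1a, Stra8 and Kash5 were higher by 0.58, 0.41 and 0.34. Between NZO/HlLtJ and CAST/EiJ the largest values were Iho1 at 1.07, Helq at 1.02 and Mus81 at 1.01 in one direction and Aurkc at -1.09, Meikin at -0.87 and Spo16 at -0.79 in the other.

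Cell type markers moved with strain as well. The 16 spermatocyte genes outside the set summed to 9420 to 10100 CPM in C57BL/6J, 10100 to 10600 in CAST/EiJ and 8090 to 9080 in NZO/HlLtJ; 11 were called lower in NZO/HlLtJ than in C57BL/6J and 1 higher, with a median of -0.18, where 28.7% of all genes were called lower and 30.4% higher. In CAST/EiJ against C57BL/6J 6 of these were called higher and 2 lower, with a median of 0.00. The 12 elongating spermatid genes summed to 15800 to 17800, 17100 to 18900 and 12500 to 16200 CPM, and 11 were called lower in NZO/HlLtJ than in C57BL/6J. The 10 Leydig cell genes summed to 724 to 994, 576 to 773 and 1300 to 1880 CPM, with 7 called higher in NZO/HlLtJ than in C57BL/6J and 2 lower. Of the other somatic lists, NZO/HlLtJ had 12 of 14 Sertoli cell genes higher than C57BL/6J and 1 lower (median 0.34), 5 of 8 peritubular and smooth muscle genes higher and 1 lower, and 4 of 9 macrophage and leukocyte genes higher and none lower. CAST/EiJ had 7 of the 8 peritubular and smooth muscle genes lower than C57BL/6J (median -0.45). None of the markers in these lists was at 0 in all libraries. Of 14 round spermatid genes, 12 were called lower and 0 higher in NZO/HlLtJ than in C57BL/6J (median -0.21). The part of cell composition in the differences of the 42 genes was not tested. The median of the 42 in that comparison was -0.03, and 0.04 with library totals alone. That scaling moved the median of all genes there from 0.01 to 0.08, and the marker lists are given under TMM scaling only.

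Diet moved none of the 42 genes past the threshold. With 44% against 10% fat, 0 of 42 were called in C57BL/6J, where 0.00874% of all genes were called, 0 in CAST/EiJ (0% of all genes) and 0 in NZO/HlLtJ (0.00437%), by the same edgeR test and adjustment. Averaged over strains, and in the test of whether the diet difference varied between strains, 0 of 42 were called as well, and 0% of all genes. DESeq2 also called 0 of 42 in each of these tests. At an unadjusted p under 0.05 either tool had 0 genes for C57BL/6J, 1 for CAST/EiJ and 1 for NZO/HlLtJ, beside 2.93%, 4.11% and 6.80% of all genes in edgeR, and 0 averaged over strains and for the strain by diet test. The signs of the 42 differences were 18 positive and 24 negative for C57BL/6J, 12 positive and 30 negative for CAST/EiJ, and 28 positive and 14 negative for NZO/HlLtJ, where 48.6%, 49.2% and 49.2% of all genes were positive. The 42 genes moved together within libraries, so these signs are not independent. In NZO/HlLtJ on 10% fat, 30 lay above the group mean in replicates 1 and 2, but 12 and 13 in replicates 3 and 4. The title ID numbers put replicates 3 and 4 in another run than replicates 1 and 2. For NZO/HlLtJ that run held 10% fat only, and 44% fat replicates 3 and 4 came from a run with 44% fat only. Run and diet were thus partly confounded in the NZO/HlLtJ differences and signs. With run as a term, 0 of 42 were called for diet in NZO/HlLtJ, and the median difference was 0.05. Without the 3 libraries that lay apart the median of the 42 differences went from -0.01 to 0.03 in C57BL/6J and from 0.03 to -0.02 in NZO/HlLtJ.

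The 2 genes under an unadjusted p of 0.05 were Meiob and Psmc3ip. In CAST/EiJ, Meiob was at 14.9, 15.6 and 16.2 CPM on 10% fat and at 13.3, 13.5, 14.1 and 14.1 CPM on 44% fat. Those libraries did not overlap, but the difference of -0.18 (SE 0.08, unadjusted p 0.0393) had an adjusted p of 1 in edgeR. In NZO/HlLtJ, Psmc3ip was at 71.7, 76.0, 76.4 and 81.6 CPM on 10% fat and at 68.2, 68.6, 71.3 and 72.5 CPM on 44% fat. There the groups overlapped by 1 library, and the difference of -0.12 (SE 0.05, unadjusted p 0.0303) had an adjusted p of 0.723 in edgeR. Neither passed the threshold, and in the other strains Meiob differed by -0.05 in C57BL/6J and 0.07 in NZO/HlLtJ.

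The intervals limit how large a diet difference could have been missed. For the 37 genes with a mean of at least 5 CPM, the 95% intervals of the ratio of 44% to 10% fat lay between 0.819 and 1.24 for C57BL/6J, between 0.738 and 1.36 for CAST/EiJ and between 0.807 and 1.25 for NZO/HlLtJ. Averaged over strains they lay between 0.859 and 1.19. For the scarce genes Mei4, Rec114, Rad21l, Rnf212 and Mnd1 they were wider, from 0.449 for Mei4 to 1.68 for Rec114 in CAST/EiJ, and differences of that size were not detectable at this depth.

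**Figure D4:**
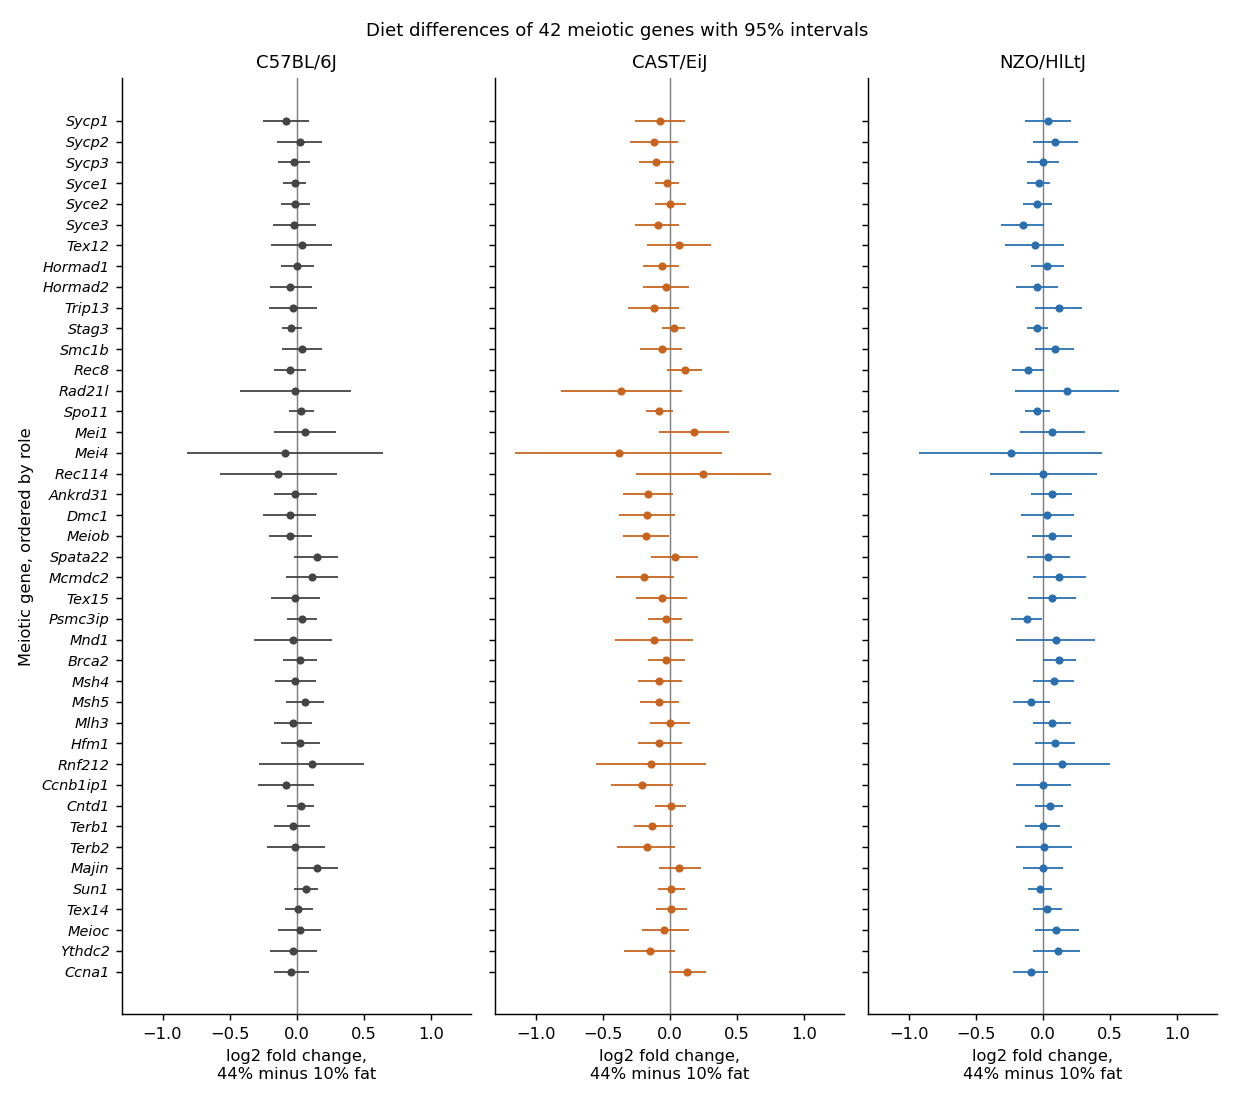
Log2 fold changes of the 42 genes for 44% against 10% fat in each strain, with 95% intervals from the edgeR fit. The points lie within -0.38 and 0.25, and the widest intervals are those of the scarce genes Mei4, Rec114 and Rad21l.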

How the data were processed

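Polyadenylated RNA from 23 mouse testis samples was sequenced as 100-base read pairs with a target of 30 M pairs per library, per the labels. The table deposited by the authors holds estimated counts per gene, of which 27.9% are not exactly whole, and every gene in it was above 0 in at least 12 libraries. A further table deposited by the authors holds log2 values from a variance-stabilising transformation and was used as an alternative only. The submitters' processing notes name GRCm38 and DESeq2; the sources used here name no aligner, no counter and no treatment of strain variants. Gene starts and ends, exon lengths, overlaps and older symbols come from GENCODE M21.

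Counts were rounded and filtered with filterByExpr, which left 22873 genes. One edgeR 4.0.16 quasi-likelihood fit (R 4.3.3, TMM scaling) covered all 6 groups, with 1 mean per group and Benjamini-Hochberg adjustment over all genes. The contrasts were strain pairs averaged over diets, diet in each strain and averaged, and strain by diet. CPM are TMM-scaled. DESeq2 1.42.0, limma 3.58.1, other scalings and filters, single diets, and leaving out libraries were the alternatives. The procedure was tested on simulated counts.

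The 42 genes and all lists were chosen with earlier results of these data known. Named were, per strain pair, up to 6 genes with the largest called differences in each direction, up to 3 per role or other list, and any gene called for diet. Meiob, Psmc3ip for diet, the partner genes and the overlapping genes were added after their values were seen.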

Additional observations from a re-analysis of the deposited data

Results flagged for a closer look

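A library is listed here where its gap to the nearest other library of its group was over 0.829 of the range of the group, Dixon's 95% limit for 4 libraries. Of 210 such checks (42 genes in 5 groups of 4), 14 or 6.67% passed, spread over 9 libraries, and chance alone passes about 1 in 20. CAST/EiJ on 10% fat, with 3 libraries, was not checked. All values are CPM.

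In C57BL/6J 10% fat replicate 4, the shallowest library, 3 genes stood out: Rec114 was low at 0.781 against 1.55 to 1.60 in the others, Sun1 low at 111 against 124 to 125, and Stag3 high at 599 against 535 to 541. In C57BL/6J on 44% fat, Sycp2 was low at 366 in replicate 4 against 428 to 433, Syce2 low at 104 in replicate 2 against 108, Rnf212 high at 2.72 in replicate 2 against 1.48 to 1.65, and Msh4 high at 25.9 in replicate 3 against 23.3 to 23.6. In CAST/EiJ on 44% fat, Mcmdc2 was low at 7.32 in replicate 1 against 8.10 to 8.25.

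In NZO/HlLtJ 44% fat replicate 1, Sycp3 was low at 147 against 161, Hormad1 low at 105 against 109 to 110, and Rad21l low at 2.11 against 2.99 to 3.15. In the same group Mcmdc2 was low at 8.2 in replicate 2 against 10.1 to 10.3, Mnd1 high at 2.81 in replicate 3 against 2.15 to 2.22, and Meioc high at 216 in replicate 4 against 194 to 198. Leaving out any 1 library kept past the threshold the calls of Rec114 in NZO/HlLtJ against either other strain and Stag3 in CAST/EiJ against either. The same held for Rnf212 and Sycp3 in NZO/HlLtJ against C57BL/6J, Rad21l in NZO/HlLtJ against CAST/EiJ, and Mnd1 in all 3 comparisons. The other strain calls of these genes were also refitted but are not summarised gene by gene.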

How the results depend on the processing

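Among 35 named strain differences none changed sign, and all 35 stayed called with DESeq2, its size factors, library totals alone, no filter, the title ID run as a term, limma on the deposited values, only the libraries of the strains compared, and any 1 library left out. On 10% or 44% fat alone 33 of 35 stayed called. A limit of 2-fold left 0 of 42 genes for NZO/HlLtJ against C57BL/6J, 3 for CAST/EiJ against C57BL/6J and 3 for NZO/HlLtJ against CAST/EiJ, from 21, 26 and 30; the limit itself removes smaller changes. Leaving out 1 library gave 20 to 22, 24 to 27 and 29 to 32 called genes, and 0 for each diet test. Without the 3 libraries that lay apart the counts were 19, 25 and 30. A filter of 5 CPM in 3 libraries dropped 5 scarce genes and left 37. No paired analysis was possible because the replicate numbers follow the order of deposit and the labels give none. Depth limits Mei4, Rec114, Rnf212, Rad21l and Mnd1 most.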

Other observations

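Transcripts beside the meiotic genes also differed by strain. The antisense transcript 4931419H13Rik, which overlaps 10.1% of the Ccna1 exon bases, was at 2.02 ± 0.324 CPM in C57BL/6J (SD, n = 8), 0.168 ± 0.0958 in CAST/EiJ (n = 7) and 2.21 ± 0.285 in NZO/HlLtJ (n = 8), a log2 difference of -3.56 (SE 0.18, adjusted p 1.52e-16 by edgeR) for CAST/EiJ against C57BL/6J, while Ccna1 itself was not called between those strains. Snhg6, a small nucleolar RNA host gene that overlaps 2.15% of Mcmdc2 on the opposite strand, was at 3.05 ± 0.495, 1.29 ± 0.0835 and 2.23 ± 0.364 CPM in the same order, and Mcmdc2 was highest in C57BL/6J as well. The pseudogene Sycp1-ps1 was higher in CAST/EiJ than in C57BL/6J by 2.78 (SE 0.09, adjusted p 2.33e-21).

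Genes listed as spermatogonial were more often higher than lower in NZO/HlLtJ. The list of differentiating spermatogonia also holds Prdm9 and Stra8, and Stra8 is counted among the other genes of meiosis as well. A list of 13 genes of undifferentiated spermatogonia summed to 107 to 118 CPM in C57BL/6J, 119 to 129 CPM in CAST/EiJ and 146 to 185 CPM in NZO/HlLtJ, without overlap between strains. Of the 11 of them that were tested, 6 were called higher and 2 lower in NZO/HlLtJ than in C57BL/6J, with a median log2 difference of 0.51. Of 11 genes of differentiating spermatogonia, 6 were called higher and 1 lower in that comparison, with a median of 0.36. Over all genes 30.4% were called higher and 28.7% lower there, and the Sertoli, Leydig, peritubular and macrophage lists also had more genes higher than lower in NZO/HlLtJ.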
